A study of Mus musculus with 12 samples.

Results

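The Fc gamma receptors were described in bone marrow-derived macrophages (BMDM) of wild type (wt) and Treml4-/- mice as 5 named genes out of 43280 in the deposited expression table. They were taken by symbol, with earlier results of these data known. They are the activating receptors Fcgr1, Fcgr3 and Fcgr4, the inhibitory receptor Fcgr2b, and Fcer1g, which encodes the common gamma chain. BMDM were macrophages grown from the marrow of C57BL6 mice with the growth factor M-CSF, so each culture was made from cells outside the animal, and the deletion of Treml4 was carried by the whole mouse. For each genotype there were 2 biological replicates without LPS (M0, given the vehicle PBS), 2 after 8 h of LPS at 100 ng/mL (M1-8 h) and 2 after 12 h (M1-12 h), 12 libraries in all. The harvest time of the M0 cultures is not given in the sources used here.

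Fc gamma receptors bind the constant part of IgG and join antibody-coated particles to the macrophage. The activating receptors pair with the common gamma chain, whose tail holds an immunoreceptor tyrosine-based activation motif (ITAM) that Src family kinases phosphorylate and the kinase Syk then binds, leading to phagocytosis and cytokine release. Fcgr2b carries an inhibitory motif (ITIM) in its own tail, which recruits the inositol phosphatase SHIP-1 and dampens the activating receptors on the same cell. In macrophages the ratio of the activating receptors to Fcgr2b is widely used as a measure of the threshold for immune complexes, and microbial products and interferons are known to shift it.

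Treml4 had 0 reads in all 6 Treml4-/- libraries and 3.95 to 13.2 CPM, the reads of a gene scaled to the total of its library in the 6 wt libraries. Libraries held 48008751 to 58500792 counted reads, so the precision of the members was not limited by counting: the fewest reads behind any member value were 1190, for Fcgr4 at M0, and the most were 102880, for Fcgr3. Macrophage markers were present in every library, with 7 of the 8 listed genes in the table. Their summed level was 18876 to 25776 CPM at M0 and 7164 to 10491 CPM after LPS, with Lyz2 the most abundant. The genes went different ways in both genotypes at both LPS times. Group means of Lyz2, Csf1r, Cd68 and Mrc1 were lower than at M0, and those of Itgam, Mertk and Cd14 were higher. Markers of other cells were measured too. The 5 B cell markers summed to 4.39 to 6.48 CPM at M0 and to at most 0.727 CPM after LPS, the 4 NK cell markers to at most 0.826 CPM, and the 5 mast cell and basophil markers to at most 0.244 CPM, with Eomes and Fcer1a at 0 reads in every library. Neutrophil markers summed to 43.8 to 139 CPM and megakaryocyte and erythroid markers to 21.3 to 57.7 CPM, dendritic cell markers to 0.570 to 7.69 CPM, T cell markers to at most 0.0771 CPM and fibroblast markers to at most 1.25 CPM.

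Of the members, 4 lie together on mouse chromosome 1 and 1 lies on chromosome 3. On the GRCm38 build, the GENCODE M21 annotation places Fcgr2b at chr1:170958617-170976547 on the minus strand, Fcgr4 at chr1:171018920-171029761 on the plus strand, Fcgr3 at chr1:171051174-171064935 on the minus strand and Fcer1g at chr1:171229572-171234365 on the minus strand. Fcgr1 is at chr3:96282909-96293969 on the minus strand. The chromosome 1 genes span 275.7 kb.

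The 160 bases before each start site are shown because the receptors moved together after LPS and to very different extents. They come from RefSeq promoter windows of GRCm38.p6, in which all 5 members were found, read 5′ to 3′ on the strand of the gene, and capitals mark matches to the motifs named after them. For Fcgr3 the table holds 2 promoters and the first listed was used.
Fcgr1 (chr3:96293970-96294129, minus strand): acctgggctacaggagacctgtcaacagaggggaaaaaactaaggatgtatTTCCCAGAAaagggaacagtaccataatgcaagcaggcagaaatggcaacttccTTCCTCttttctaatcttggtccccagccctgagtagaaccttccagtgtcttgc
Fcgr3 (chr1:171059404-171059563, minus strand): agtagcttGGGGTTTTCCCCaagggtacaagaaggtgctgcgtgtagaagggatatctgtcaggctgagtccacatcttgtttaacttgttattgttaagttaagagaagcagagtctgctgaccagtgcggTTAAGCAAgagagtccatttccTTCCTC
Fcgr4 (chr1:171018766-171018925, plus strand): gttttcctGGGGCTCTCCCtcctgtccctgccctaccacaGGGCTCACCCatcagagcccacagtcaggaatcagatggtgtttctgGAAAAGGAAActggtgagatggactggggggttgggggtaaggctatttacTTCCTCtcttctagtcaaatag
Fcgr2b (chr1:170976072-170976231, minus strand): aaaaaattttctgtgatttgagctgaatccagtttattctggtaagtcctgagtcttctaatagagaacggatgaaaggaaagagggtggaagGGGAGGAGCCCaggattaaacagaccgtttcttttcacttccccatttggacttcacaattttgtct
Fcer1g (chr1:171234350-171234509, minus strand): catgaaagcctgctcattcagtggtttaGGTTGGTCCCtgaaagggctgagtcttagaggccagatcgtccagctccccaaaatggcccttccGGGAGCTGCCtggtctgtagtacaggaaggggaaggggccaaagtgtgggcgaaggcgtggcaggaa

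5 motifs were searched on both strands of the 300-base windows, from 250 bases before to 50 after the start, and every match lay within the bases shown. Fcgr1 held the gamma-interferon activated site TTCNNNGAA as TTCCCAGAA, starting 109 bases before the start site, which 8.47% of all 27025 promoters hold. Fcgr4 held the core of the interferon-stimulated response element, GAAA and GAAA with any 2 bases between, as GAAAAGGAAA, starting 73 bases before the start site, which 3.49% of promoters hold. The core of the PU.1 box, GAGGAA, bound by the myeloid factor PU.1, was found in Fcgr1, Fcgr3 and Fcgr4 and in 28.3% of promoters, and was not matched in these windows of Fcgr2b and Fcer1g. The C/EBP core TTGCNNAA was matched in Fcgr3 and in 10.8% of promoters. The NF-kB core, GGG and CC with any 5 bases between, was matched in each member but Fcgr1, with overlapping matches in Fcgr3, Fcgr4 and Fcgr2b, and is held by 50.4% of all promoters. A match describes the letters and is not evidence of binding.

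The first comparison asks how the members answered LPS. Fcgr4 moved the most, Fcgr1 next, and Fcgr2b and Fcgr3 by similar, smaller amounts, while Fcer1g stayed within a fold of 1.4 of M0 on the mean of both genotypes. A gene was called where the p of limma, adjusted by Benjamini and Hochberg's method, was under 0.05. CPM + 1 also had to differ by a factor of 1.4 or more. After 8 h 4 of the 5 members were called higher and none lower, against 17.1% of the 12086 genes tested called higher and 76.9% called in either direction. After 12 h Fcgr1, Fcgr3, Fcgr4 and Fcgr2b were again the 4 called higher, against 16.3% called higher and 76.5% called in all. In bulk samples fewer cells of a type and less RNA per cell cannot be told apart. The median log2 fold change of all genes tested was -0.72 after 8 h and -0.76 after 12 h, and of the called genes 22.3% were higher after 8 h. Scaled by the median of ratios of the genes, that share was 49.8%, with 3762 genes called higher and 3792 lower. With quantile normalization it was 43.6%, with 3362 higher and 4342 lower. The 4 receptors were called higher under all 3 scalings.

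**Figure D1:**
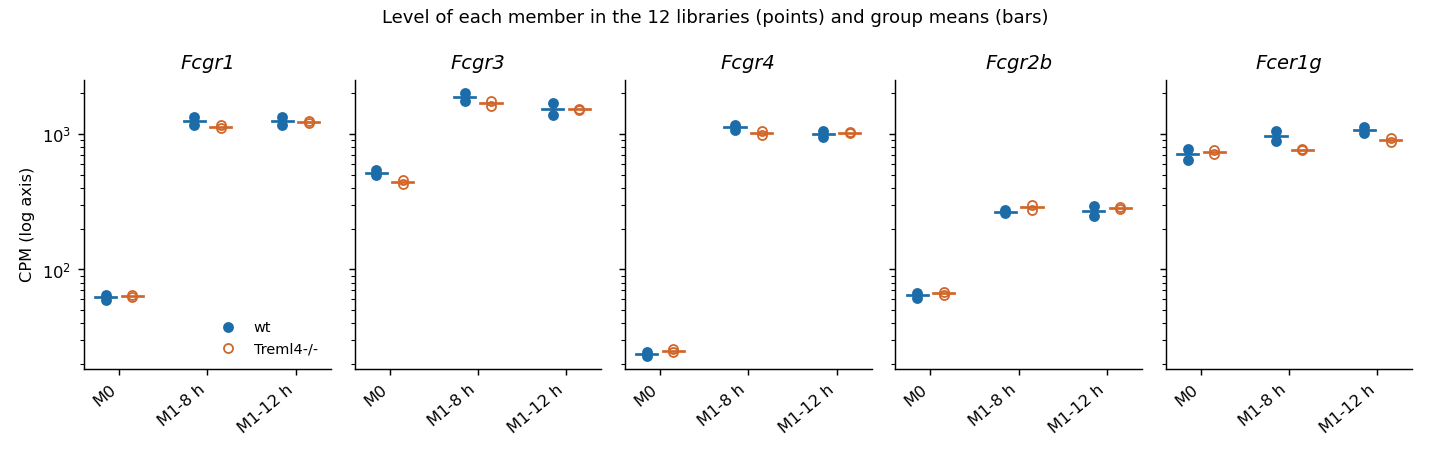
CPM of the 5 members on a log axis in the 12 libraries, with 2 points for each genotype and time, wt filled and Treml4-/- open, and a bar at each group mean. All LPS libraries of Fcgr1, Fcgr3, Fcgr4 and Fcgr2b lie above all M0 libraries, with Fcgr4 going from 22.9 to 25.8 CPM at M0 to 984 to 1177 CPM after 8 h, while Fcer1g stays between 645 and 1131 CPM throughout.

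Fcgr4, which binds the mouse subclasses IgG2a and IgG2b, was the lowest activating receptor at M0. It stood at 22.9 and 24.7 CPM in the wt and 25.8 and 24.4 CPM in the Treml4-/- libraries. After 8 h it reached 1177 and 1074 CPM in wt and 1049.6 and 984 CPM in Treml4-/- cells, and after 12 h 1047 and 957 CPM in wt and 1033 and 1014 CPM in Treml4-/- cells. No LPS library overlapped an M0 library, and replicates of a group differed little beside that step. Over both genotypes the log2 fold change was 5.39 ± 0.06 (SE) after 8 h, a 42.0-fold change (adjusted p = 2.83e-14, limma), and 5.31 ± 0.06 after 12 h, a 39.8-fold change (adjusted p = 2.8e-14). By size of rise it ranked 93rd of the 12086 genes after 8 h and 103rd after 12 h.

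Fcgr1, the high-affinity receptor that can hold monomeric IgG, was at 59.6 and 65.1 CPM in wt and 65.0 and 62.2 CPM in Treml4-/- cells at M0. It stood at 1332 and 1168 CPM in wt and 1168 and 1105 CPM in Treml4-/- cells after 8 h. After 12 h the values were 1348 and 1165 CPM in wt and 1217 and 1251 CPM in Treml4-/- cells. In wt they lay just outside the M1-8 h values on either side, and in Treml4-/- cells both lay above both M1-8 h libraries. The log2 fold change over both genotypes was 4.22 ± 0.07 (SE) after 8 h, an 18.6-fold change (adjusted p = 4.7e-13, limma), and 4.28 ± 0.07 after 12 h, a 19.5-fold change (adjusted p = 4.65e-13). Fcgr1 ranked 167th by size of rise after 8 h and 151st after 12 h.

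Fcgr3, a low-affinity receptor for immune complexes, was the most abundant of the receptors at M0, with 495 and 538 CPM in wt and 460.3 and 429 CPM in Treml4-/- cells. It stood at 2016 and 1746 CPM in wt and 1759 and 1615 CPM in Treml4-/- cells after 8 h. After 12 h the values were 1703 and 1377 CPM in wt and 1517 and 1527 CPM in Treml4-/- cells, and in each genotype both libraries lay below both of M1-8 h. The change from M0 over both genotypes was 1.89 ± 0.08 on the log2 scale (SE) after 8 h, 3.71-fold (adjusted p = 8.57e-10, limma), and 1.67 ± 0.08 after 12 h, 3.18-fold (adjusted p = 2.32e-09). Fcgr3 was the member with the smallest called change, at rank 723 by size of rise after 8 h.

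Fcgr2b, the inhibitory receptor, was at 67.5 and 62.0 CPM in wt and 65.3 and 67.8 CPM in Treml4-/- cells at M0. After 8 h it stood at 275 and 260.1 CPM in wt and 299 and 277 CPM in Treml4-/- cells, and after 12 h at 295 and 249.9 CPM in wt and 292 and 279.6 CPM in Treml4-/- cells. The inhibitory receptor thus rose with the activating ones, and its 8 LPS libraries all lay above its 4 M0 libraries. Its log2 fold change over both genotypes was 2.06 ± 0.07 (SE) after 8 h, 4.18-fold (adjusted p = 9.04e-11, limma), and 2.07 ± 0.07 after 12 h, 4.20-fold (adjusted p = 9.32e-11). Fcgr2b and Fcgr3 share some exonic sequence: 166 windows of 50 bases are identical between them, 9.58% of those of Fcgr3 and 2.92% of those of Fcgr2b, and over the read length of 126 bases 4 windows are, 0.231% and 0.0677%, so a small part of the reads could not be assigned to 1 of them. An antisense gene, Gm38204, is annotated across Fcgr2b, and whether strand was used in counting is not given in the sources used here.

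Fcer1g, the gamma chain that the activating receptors need at the cell surface, was already abundant at M0, with 645 and 773 CPM in wt and 764 and 712 CPM in Treml4-/- cells. After 8 h the values were 884 and 1049 CPM in wt and 774 and 763 CPM in Treml4-/- cells, and after 12 h 1017 and 1131 CPM in wt and 872 and 931 CPM in Treml4-/- cells. The Treml4-/- libraries after 8 h lay within or at the edge of the M0 range, whereas all M1-12 h libraries lay above it. Over both genotypes the log2 fold change was 0.25 ± 0.08 (SE) after 8 h, 1.19-fold (adjusted p = 0.0103, limma), and 0.45 ± 0.08 after 12 h, 1.36-fold (adjusted p = 0.000223), so the p passed and the fold of 1.4 did not.

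The direction of Fcer1g depended on the scaling. Scaled by the median of ratios it was called higher at both times, with log2 fold changes of 1.05 after 8 h and 1.30 after 12 h, and with quantile normalization the values were -0.05 and 0.14 and were not called. Relative to the median of all genes tested, Fcer1g was higher by 0.98 after 8 h and 1.20 after 12 h on the log2 scale, while Fcgr3, Fcgr2b, Fcgr1 and Fcgr4 were higher by 2.61, 2.79, 4.94 and 6.12 after 8 h. The order of the members by size of change was Fcgr4, Fcgr1, Fcgr2b, Fcgr3 and Fcer1g at both times.

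**Figure D2:**
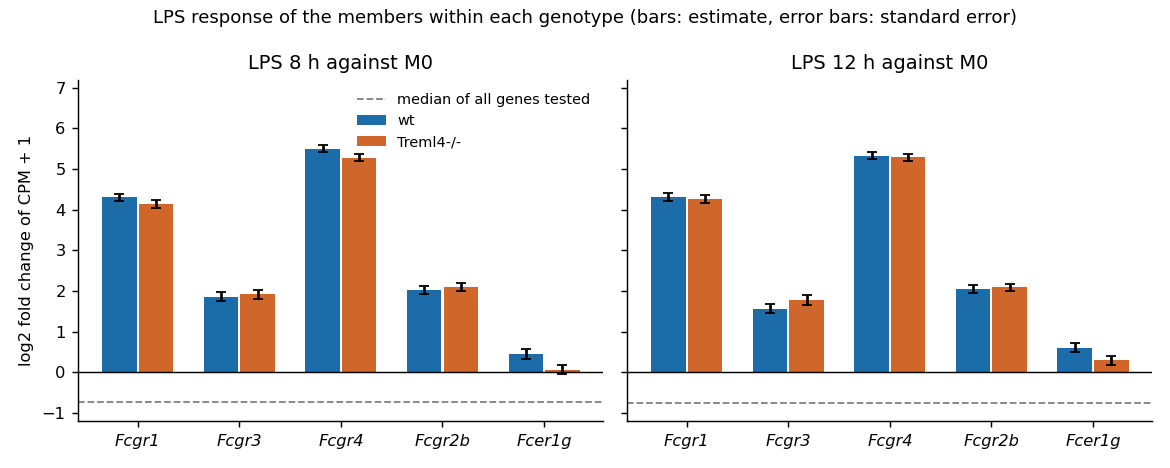
Log2 fold change of CPM + 1 against M0 for each member within wt (blue) and Treml4-/- (orange) at 8 h (left) and 12 h (right) of LPS, with error bars for the standard error and a dashed line at the median of all genes tested. Fcgr4 stands above 5 and Fcgr1 above 4 in both genotypes at both times, and Fcer1g lies between 0.06 and 0.60.

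Between 8 and 12 h the members moved little. limma called none of the 5, against 32.1% of the genes tested, and 2 of them had an unadjusted p under 0.05. Fcgr3 differed by -0.22 ± 0.08 (SE, log2) after 12 h relative to M1-8 h (adjusted p = 0.0352, limma), with a 95% interval of -0.40 to -0.04, and Fcer1g by 0.19 ± 0.08 (adjusted p = 0.0561, limma), with an interval of 0.02 to 0.37. The estimates of Fcgr1, Fcgr4 and Fcgr2b were 0.06, -0.08 and 0.01, with intervals that reached from -0.21 to 0.21. Fcgr3 and Fcer1g thus had estimates of opposite sign, both below the fold of 1.4.

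Within each genotype taken alone the same order of sizes was seen. In wt cells 4 members were called higher after 8 h, against 16.3% of genes called higher, and all 5 after 12 h, against 16.2%. In Treml4-/- cells 4 were called higher after 8 h, against 17.7%, and 4 after 12 h, against 16.1%. Fcgr4 had log2 fold changes of 5.50 ± 0.08 (SE) in wt and 5.28 ± 0.08 in Treml4-/- cells after 8 h, and Fcgr1 of 4.30 ± 0.10 and 4.14 ± 0.10. For Fcer1g the values were 0.45 ± 0.11 in wt and 0.06 ± 0.11 in Treml4-/- cells after 8 h, and 0.60 ± 0.11 and 0.29 ± 0.11 after 12 h. The call of Fcer1g in wt cells after 12 h, a 1.52-fold change (adjusted p = 0.000362, limma), rested on the lower of the 2 wt M0 libraries: without wt M0 replicate 1 the log2 fold change was 0.47, which is under the fold of 1.4.

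Levels can be compared between genes only per length, and here CPM was divided by the exonic length of each gene in kilobases, which is 2.589 kb for Fcgr1, 1.736 kb for Fcgr3, 1.256 kb for Fcgr4, 5.79 kb for Fcgr2b and 0.874 kb for Fcer1g. At M0 the order of the levels was Fcer1g at 828 CPM per kb, Fcgr3 at 277, Fcgr1 at 24.3, Fcgr4 at 19.5 and Fcgr2b at 11.3, as means of 4 libraries. No neighbours in that order overlapped. After 8 h Fcgr3 at 1027, Fcer1g at 992 and Fcgr4 at 853 CPM per kb overlapped in their ranges over 4 libraries, followed by Fcgr1 at 461 and Fcgr2b at 47.9, which did not. For Fcgr3 and Fcgr4 the overlap rested on 1 library, since the highest Fcgr4 value, 937 in wt, passed the lowest Fcgr3 value, 930.1 in Treml4-/- cells, and within each genotype both Fcgr4 libraries lay below both Fcgr3 libraries. After 12 h the order was Fcer1g at 1129.9, Fcgr3 at 882, Fcgr4 at 806, Fcgr1 at 481 and Fcgr2b at 48.2 CPM per kb, and Fcgr3 and Fcgr4 were the one pair of neighbours that overlapped. The length chosen mattered for Fcgr2b, whose 4 coding transcripts have a median of 1.52 kb: with that length its M0 level was 43.2 CPM per kb, above Fcgr1 and Fcgr4, and its place after LPS did not change.

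The activating to inhibitory balance was taken as the sum of Fcgr1, Fcgr3 and Fcgr4 over Fcgr2b, all in CPM per kb, and is given as a description with no test. It was higher after LPS in every library than in any M0 library. At M0 it was 28.0 and 33.1 in the wt libraries and 27.6 and 24.8 in Treml4-/- cells. It stood at 55.1 and 51.5 in the wt libraries and 44.6 and 44.7 in Treml4-/- cells after 8 h, and at 45.8 and 46.4 in the wt libraries and 43.0 and 44.9 in Treml4-/- cells after 12 h. On the log2 scale the mean over both genotypes went up by 0.79 from M0 to M1-8 h and by 0.67 from M0 to M1-12 h, with a pooled SD between replicates of 0.09. The ratio is independent of the scaling of the library but not of the length used for Fcgr2b. In CPM with no division by length it was 7.60 to 10.1 at M0, 13.3 to 16.5 after 8 h and 12.9 to 14.0 after 12 h, and with the median coding transcript as length 8.23 to 11.1, 13.3 to 16.5 and 12.7 to 13.7. Its size is therefore uncertain by several fold, while the order of M0 below the LPS times was the same with each length.

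The 3 activating receptors did not take part equally. In CPM per kb, Fcgr3 over Fcgr2b was 21.1 to 29.0 at M0. It was 19.4 to 24.5 after 8 h and 17.3 to 19.2 after 12 h, so it did not go up. Fcgr1 over Fcgr2b went from 1.98 to 2.35 at M0 to 8.75 to 10.8 after 8 h and 9.33 to 10.4 after 12 h. Fcgr4 over Fcgr2b went from 1.57 to 1.84 at M0 to 16.2 to 19.8 after 8 h and 16.3 to 17.6 after 12 h. The balance of each receptor to Fcgr2b therefore differed in direction: the Fcgr1 and Fcgr4 ratios of the LPS libraries all lay above those at M0, and the Fcgr3 ratios after 12 h all lay below them.

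The make-up of the activating sum changed accordingly. Fcgr3 made up 85.0 to 87.4% of it at M0, 43.5 to 44.4% after 8 h and 39.6 to 42.0% after 12 h. Fcgr4 made up 5.55 to 6.69%, 35.9 to 37.0% and 35.7 to 38.0%, and Fcgr1 7.05 to 8.26%, 19.5 to 19.9% and 21.7 to 22.4%. Replicates and genotypes lay within 3 percentage points of each other at each time, so the shift with LPS was much larger than the spread. The gamma chain did not keep pace with its partners: Fcer1g over the activating sum, per kb, was 2.26 to 2.81 at M0, 0.385 to 0.519 after 8 h and 0.461 to 0.645 after 12 h.

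**Figure D3:**
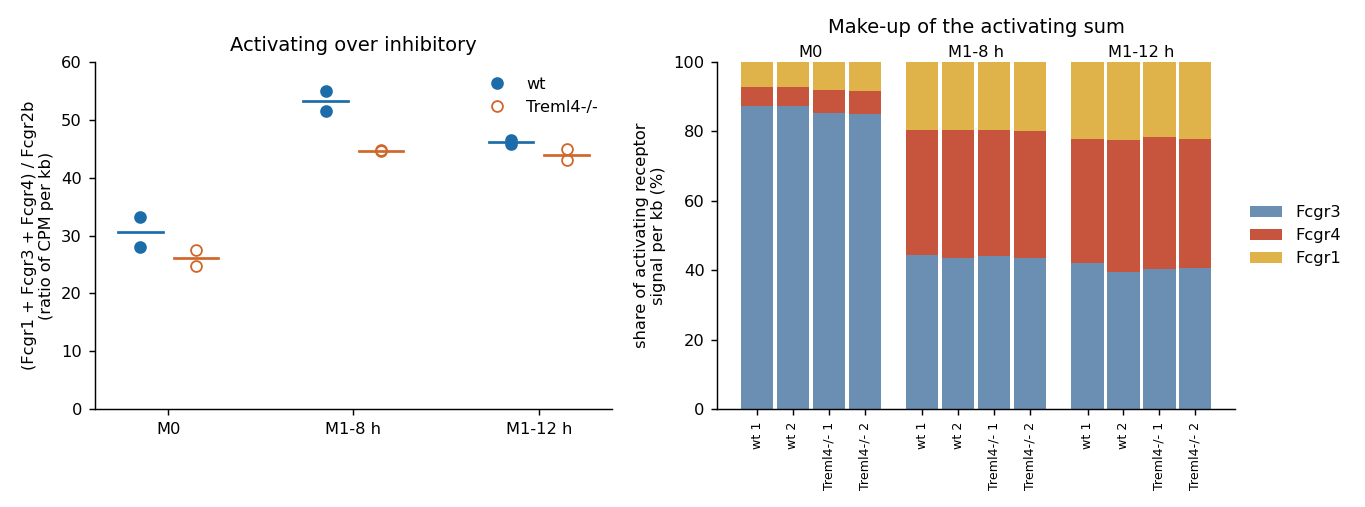
Left, the ratio of the summed activating receptors to Fcgr2b in CPM per kb for each library, with bars at the group means, which lies between 24.8 and 33.1 at M0 and between 43.0 and 55.1 after LPS. Right, the share of Fcgr3, Fcgr4 and Fcgr1 in the activating sum for each of the 12 libraries, in which Fcgr3 goes from 85.0% or more at M0 to 44.4% or less after LPS.

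The second comparison asks whether the members differed between wt and Treml4-/- cells. limma called none of the 5 at M0, against 0.0993% of genes tested, none after 8 h, against 0.091%, none after 12 h, against 0.132%, and none on the mean over the 3 times, against 0.414%. At an unadjusted p under 0.05 there were 0 of the 5 members at M0, 1 after 8 h, 1 after 12 h and 1 on the mean, beside 405, 2539, 912 and 2434 of the 12086 genes. That member was Fcer1g each time. The gene counts moved when single libraries were left out, to 220 at M0 without wt M0 replicate 1, to 599 after 8 h without Treml4-/- M1-8 h replicate 1 and to 79 after 12 h without wt M1-12 h replicate 1, from 12, 11 and 16, and none of the 5 members was called in any of these. The 95% intervals of the 15 differences at single times lay between -0.31 and 0.57 on the log2 scale, so a difference of 1.4-fold was outside the interval for each member at each time but Fcer1g after 8 and 12 h of LPS.

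Fcer1g was higher in wt than in Treml4-/- cells in both replicates at each LPS time, with no overlap of the libraries, and overlapped at M0. Its wt to Treml4-/- log2 difference was -0.06 ± 0.11 (SE) at M0, 0.33 ± 0.11 after 8 h (adjusted p = 0.176, limma; 95% interval 0.08 to 0.57) and 0.25 ± 0.11 after 12 h (adjusted p = 0.649; 0.0032 to 0.50). These did not pass the adjustment over all genes. Both wt libraries lay above both Treml4-/- libraries for 18% of all genes tested after 8 h and 12.3% after 12 h. The genotype by LPS interaction of Fcer1g was 0.39 ± 0.16 at 8 h (adjusted p = 0.729, limma) and 0.31 ± 0.16 at 12 h (adjusted p = 0.999). No member was called in either interaction, against 0.00827% of genes in each, and at an unadjusted p under 0.05 there were 1 and 0 members beside 806 and 462 genes. The interaction estimates of the 5 members lay between -0.06 and 0.39 at 8 h and between -0.21 and 0.31 at 12 h.

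For the 4 receptors the genotype differences were small and of mixed sign. At M0 Fcgr3 was higher in both wt libraries than in both Treml4-/- libraries, by 0.22 ± 0.11 (SE, log2; adjusted p = 1, limma), and the other members overlapped. After 8 h Fcgr1, Fcgr4 and Fcer1g were higher and Fcgr2b lower in both wt libraries than in both Treml4-/- libraries, with log2 differences of 0.13, 0.15, 0.33 and -0.10, although the nearest wt and Treml4-/- libraries of Fcgr1 both rounded to 1168 CPM. Non-overlap of 2 against 2 libraries was common: 28.8% of genes tested did not overlap at M0, 51.9% after 8 h and 43.1% after 12 h. After 12 h Fcgr1, Fcgr3, Fcgr4 and Fcgr2b overlapped, with log2 differences of 0.02, 0.01, -0.03 and -0.07. In wt cells after 12 h replicate 1 was the higher one for all 4 receptors and replicate 2 for Fcer1g.

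**Figure D4:**
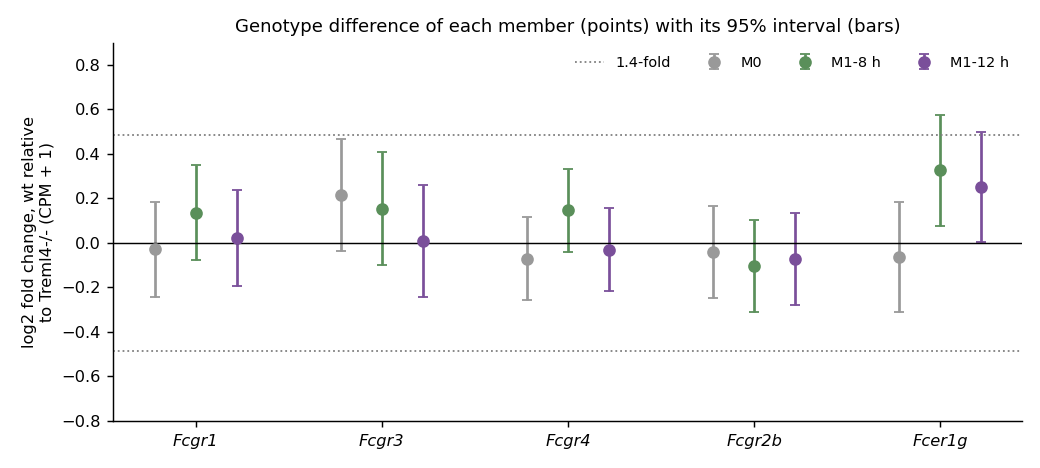
Log2 fold change of CPM + 1 in wt relative to Treml4-/- cells for each member at M0 (grey), M1-8 h (green) and M1-12 h (purple), with 95% intervals and dotted lines at a fold of 1.4. The intervals of the 4 receptors all include 0, and those of Fcer1g after 8 h, from 0.08 to 0.57, and M1-12 h, from 0.0032 to 0.50, lie above it before any adjustment.

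The balance, taken as the sum, was higher in wt than in Treml4-/- cells at each time with no overlap of the libraries. Of single genes tested, 28.8% at M0, 51.9% after 8 h and 43.1% after 12 h did not overlap, counting both directions. Both wt libraries were the higher ones for 10.8%, 18% and 12.3% of genes tested. The log2 difference of the balance was 0.22 at M0, 0.25 after 8 h and 0.07 after 12 h, beside the pooled SD of 0.09. The means were 30.6 ± 3.62 (SD, n = 2) in wt and 26.2 ± 1.96 (SD, n = 2) in Treml4-/- cells at M0. They were 53.3 ± 2.54 and 44.7 ± 0.085 (SD, n = 2) after 8 h and 46.1 ± 0.454 and 44.0 ± 1.38 (SD, n = 2) after 12 h. The M0 difference moved from 0.10 to 0.34 when 1 of the wt M0 libraries was left out, replicate 2 giving the lower and replicate 1 the higher value, and was 0.08 when the geometric mean of the 3 receptors was used in place of the sum, with which the libraries of the genotypes overlapped at M0. The 12 h difference, below the pooled SD, was 0.04 without Treml4-/- M1-12 h replicate 1 and 0.10 without replicate 2.

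Around the receptors, the genes that carry or restrain their signal were taken from lists by role. Their counts stand beside 17.1% of all genes tested called higher and 59.8% called lower after 8 h, and 16.3% and 60.3% after 12 h. Among 14 other Fc receptors, 5 passed the filter on low values, of which 2 rose and 3 fell at both times, with a median log2 fold change of -1.33 after 8 h beside -0.72 for all genes. Trim21, the cytosolic receptor that sends antibody-coated viruses to the proteasome, rose by 2.50 on the log2 scale after 8 h and 2.68 after 12 h, and Fcrlb, an intracellular Fc receptor-like protein that neighbours Fcgr2b, by 2.89 and 2.39. Fcgrt, the neonatal receptor that recycles IgG and albumin, fell by 1.82 and 2.04, Fcrl1 fell by 2.77 and 2.47 and Fcrls fell by 1.33 and 2.05. These directions were the same under the other scalings, although Fcrls was not called after 8 h with quantile normalization.

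Of 28 tested ITAM kinases and adaptors, 10 rose and 11 fell after 8 h and 9 rose and 11 fell after 12 h, with medians of -0.09 and -0.07, beside 17.1% of all genes higher and 59.8% lower after 8 h. Lyn, a Src family kinase that phosphorylates the ITAM, was among those that rose, at 2.19 and 1.85, as were the adaptor Lcp2 (SLP-76) at 2.27 and 1.70 and Malt1, a paracaspase of the NF-kB arm, at 2.91 and 2.32. Among those that fell were the adaptor Blnk at -2.53 and -1.91, Plcg1 at -2.43 and -1.37, Plcg2, which makes the calcium signal, at -1.73 and -1.75, the adaptor Lat2 at -2.11 and -0.62, and Tyrobp (DAP12), the other ITAM chain of macrophages, at -1.25 and -1.47. Syk was at 0.21 and 0.44 and was not called on the mean over genotypes. After 12 h it was called in Treml4-/- cells, at 0.54, and not in wt cells, at 0.33. Scaled by the median of ratios 17 rose and 5 fell after 8 h, Syk was called at 1.01, Tyrobp was not called at -0.45, and Lat2 had 0.23 in place of -0.62 after 12 h.

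Of the 20 phagocytosis effectors, 3 rose and 12 fell after 8 h and 2 rose and 11 fell after 12 h, with medians of -0.63 and -0.54, close to the median of all genes. Cybb, the catalytic subunit of the phagocyte oxidase, rose by 0.99 and 0.69, and Rac2, its small GTPase, was at 0.03 after 8 h and rose by 0.55 after 12 h. Wipf1, a partner of the actin regulator WASP, was at -1.88 and -0.93, Ncf4, an oxidase subunit, at -1.31 and -1.19, and Coro1a, an actin-binding protein, at -1.26 and -1.60, all called. Pld1, a phospholipase D, fell by 1.26 after 8 h and was at -0.30 and not called after 12 h, where the median of ratios gave 0.50. Coro1a was not called after 8 h with the median of ratios, at -0.46. Lsp1 at -1.38 and Elmo1 at -1.37 were among the largest falls after 12 h. With the median of ratios 7 rose and 3 fell after 8 h, so the larger number of falls in this list held only for CPM and for quantile normalization, which gave 4 and 11.

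Among 16 tested genes listed as inhibitory receptors and brakes, 4 rose and 7 fell after 8 h and 2 rose and 5 fell after 12 h. These stand beside the same 17.1% and 59.8% of all genes after 8 h. The medians were -0.26 and -0.33, and those of all genes -0.72 and -0.76. The list held Ptprc (CD45), which can also activate Src family kinases. After 8 h Ptprc was called higher in wt, at 0.60, and in Treml4-/- cells, at 0.88. Inpp5d, which encodes the SHIP-1 that Fcgr2b recruits, fell by 2.68 after 8 h and by 1.28 after 12 h, from 520.4 and 518 CPM in wt and Treml4-/- cells at M0 to 73.3 and 89.2 CPM after 8 h and 196 and 233 CPM after 12 h. Between the LPS times it rose again, by 1.398. The inhibitory receptors Cd300a and Sirpa fell by 2.74 and 2.33 after 8 h and by 3.15 and 1.01 after 12 h, and the adaptor Pag1 fell by 1.91 after 8 h. Inppl1, the related phosphatase SHIP-2, fell by 1.14 and 1.47, and was not called after 8 h with the median of ratios, at -0.34. Pirb rose by 1.22 and 1.28 and Cd300lf by 1.09 and 4.82. Ptpn6, the phosphatase SHP-1, was at 0.41 and 0.03 and was not called on the mean over genotypes. After 8 h it was called in wt cells, at 0.53, and not in Treml4-/- cells, at 0.30. With the median of ratios 9 rose and 4 fell after 8 h, and the values of Inpp5d were -1.88 and -0.43, the second not called.

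A list of other receptors drawn up as partners of the Fcer1g chain had 2 of 5 tested genes called higher and 2 lower at both times. It held Clec4a2 (DCIR), which carries an ITIM in its own tail and is not a user of the chain, so without it 1 of 4 was called lower. Clec4e (Mincle) rose by 4.27 and 4.25 and Clec4n (Dectin-2) by 2.04 and 3.47, while Clec4a2 fell by 1.395 and 1.86. Pira2 was at -0.87 and -1.11, called with CPM and not under the other scalings. It was the one gene of the 6 lists called between genotypes, at 6.96 ± 0.139 CPM in wt and 41.7 ± 0.291 CPM in Treml4-/- cells at M0 (SD, n = 2 each), a log2 difference of -2.42 (adjusted p = 3.6e-07, limma), and of -2.37 after 8 h and -2.57 after 12 h. Pira2 belongs to a family of near-identical genes, so reads may have been split between copies.

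The list drawn up as the interferon gamma axis of Fcgr1 had the largest median, 1.96 after 8 h and 0.87 after 12 h. It held Stat2 and Irf9, which are not particular to interferon gamma, and interferon signalling was not tested. Of 11 genes tested, 6 rose and 1 fell after 8 h, and 7 rose and 2 fell after 12 h. Socs1, a feedback inhibitor of JAK kinases, rose by 6.96 and 6.59, Jak2 by 4.42 and 3.59, Stat2 by 3.72 and 3.93 and Irf1 by 3.48 and 3.66. Ifngr1, a chain of the interferon gamma receptor, fell by 3.26 and 2.94. Irf8 was at 1.96 and 0.87, the one gene of the list besides Jak2 that fell between the LPS times, by 1.09. The directions against M0 of the genes named here held under the 3 scalings.

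**Figure D5:**
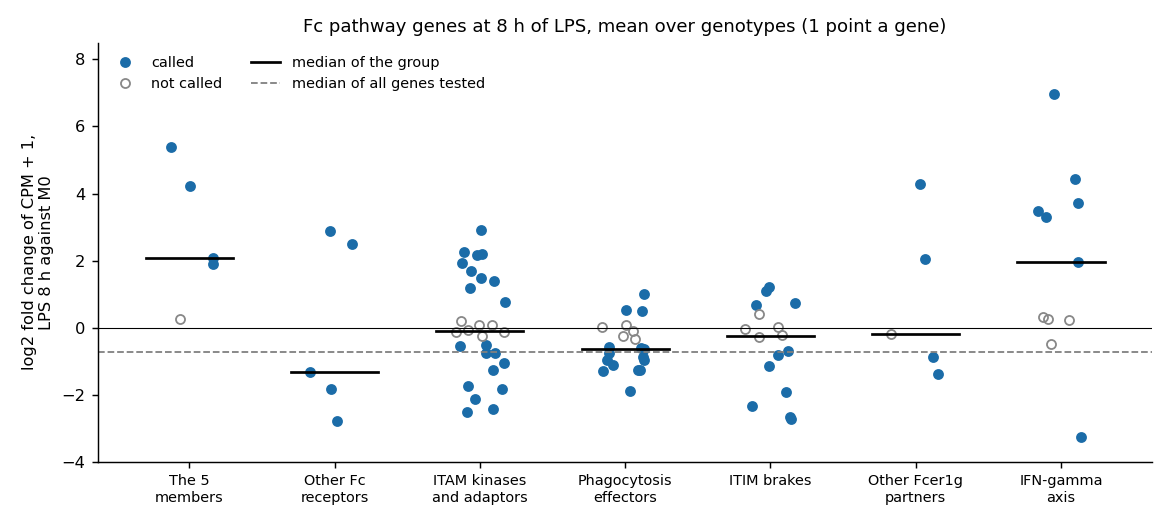
Log2 fold change of CPM + 1 at 8 h of LPS against M0, as a mean over genotypes, for the 5 members and 6 lists of genes of the Fc receptor pathway, 1 point a gene, filled where called and open where not. Bars mark each group's median, from 2.06 for the members and 1.96 for the interferon gamma axis to -1.33 for the other Fc receptors, and the dashed line marks the median of all genes tested, -0.72.

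The genes whose pattern over the 12 libraries was most like that of each member were named by the Pearson correlation of log2(CPM + 1), as a description over libraries that share the LPS step. For Fcgr1 these were Nos2, Il1rn, Isg15, Batf2 and Daxx, and for Fcgr4 Nos2, Il1rn, Daxx, Batf2 and Cxcl10, so 4 of the 5 were shared. For Fcgr3 they were Entpd1, Prr5l, Zfp36, Wfdc17 and AB124611, and for Fcgr2b Rnf213, Serpinb1a, Ddx58, P4ha1 and Serping1. The highest coefficient was 0.9992 for Fcgr1, 0.9995 for Fcgr4, 0.9965 for Fcgr3 and 0.9984 for Fcgr2b, and between 663 and 810 genes exceeded 0.95 for each of these 4. Fcer1g stood apart: 1 gene, Dennd4b at 0.951, exceeded 0.95, followed by H2-D1, Poldip3, Cd52 and Gmfg, the last at 0.933.

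The genes that lie between the receptors on chromosome 1 were also examined. Of 13 other genes annotated between Fcgr2b and Fcer1g, 10 were in the table and 3 passed the filter, and all 3 were called lower, beside 59.8% of all genes after 8 h and 60.3% after 12 h. Pcp4l1 had log2 fold changes of -3.31 after 8 h and -4.78 after 12 h, Tomm40l -1.72 and -2.11, and Sdhc, a subunit of succinate dehydrogenase, -0.75 and -1.05, the first close to the median of all genes. On the side of Fcgr2b the nearest tested genes were Fcrlb, at 2.89, and Dusp12 and Atf6, at -0.94 and -0.73 after 8 h. On the side of Fcer1g, Adamts4 was at 1.07 and B4galt3 at 0.50.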

How the data were processed

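Per the labels and methods, RNA was sequenced as paired-end stranded poly(A) libraries. The authors aligned reads to mm10 with STAR in the CCBR workflow, whose listed tools include Subread; the annotation and the counting strand are not given in the sources used here. The deposited values are log2 CPM per gene, with a prior count of 0.25 reads. The analysis plan had assumed CPM, so the values were turned back into CPM and reads, which came out whole, within 0.01 reads, for 100% of values. For log2(CPM + 1), limma 3.58.1 (R 4.3.3) fitted 1 mean for each of the 6 groups with a trended prior variance. A gene was tested if 2 libraries or more had 1 CPM or more, which left 12086 genes and all 5 members, and the fit was tested on simulated data. Calls required a p adjusted by Benjamini and Hochberg's method under 0.05 and a 1.4-fold difference. Groups and replicate numbers came from the sample titles. Replicates of each group differed beyond counting error (chi-square over degrees of freedom 12.0 to 55.6) and were kept apart; as biological replicates of unstated origin, their spread may be partly technical. The pseudocount of 1 understates fold changes of low genes. Exonic lengths and positions were from GENCODE M21 and promoters from RefSeq. The members and lists were chosen with earlier results of these data known. Named genes were the members, up to 4 called genes by size per list and comparison, 8 set pathway genes, the 5 most correlated genes per member and the neighbours; Ifngr1 was added with its values in view, and some genes are not reported here. As alternatives there were other pseudocounts, filters, scalings, blocks and lengths, voom on the recovered reads, and each library left out.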

Additional observations from a re-analysis of the deposited data

How the results depend on the processing

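The LPS calls of Fcgr1, Fcgr3, Fcgr4 and Fcgr2b against M0 were the same in all 580 refits, 1 for each receptor, contrast and alternative, which covered other pseudocounts, filters, scalings, blocks, voom and each library left out. Without the minimum fold 1 member, Fcgr3, was called between the LPS times. With quantile normalization the LPS estimate of Fcer1g was -0.0501 after 8 h over both genotypes, and -0.22 after 8 h and -0.00397 after 12 h in Treml4-/- cells. Genotype differences near 0 changed sign with the median of ratios for Fcgr1 at M0 (0.0101), Fcgr2b after 8 h (0.0255), after 12 h (0.0157) and on the mean (0.0132) and Fcgr4 after 12 h (0.0563), and with quantile normalization for Fcgr1 at M0 (0.0078), and none was called. With each library left out in turn, M0 differences were -0.0907 to 0.0341 for Fcgr1, -0.0998 to 0.0200 for Fcgr2b and -0.193 to 0.0669 for Fcer1g. Those after 12 h were -0.0830 to 0.128 for Fcgr1, -0.144 to 0.162 for Fcgr3, -0.0969 to 0.0335 for Fcgr4 and -0.192 to 0.0478 for Fcgr2b, the mean difference of Fcgr4 was -0.00771 to 0.0363, and the change of Fcgr2b between the LPS times was -0.0532 to 0.0665. The log2 change of the balance was 1.78 after 8 h and 1.70 after 12 h with the geometric mean, 0.64 and 0.51 with the longest coding transcript and 0.63 and 0.50 with the median one, both lengths being chosen after seeing the data. Its M0 genotype difference was 0.0784 with the geometric mean and 0.10 to 0.34 with wt M0 libraries left out. The genes called on the mean genotype difference numbered 50, and 16 with no filter, 31 with a filter at 5 CPM, 78 with a pseudocount of 0.1 and 119 with no minimum fold. With only the libraries compared in the fit the counts at M0, 8 h and 12 h were 7, 5 and 8 in place of 12, 11 and 16, and voom gave 10 after 12 h. With each library left out they were 7 to 220, 8 to 599 and 6 to 79, and 21 to 183 on the mean, and the 12 h interaction had 33 in place of 1 without wt M0 replicate 1. Between the LPS times 3885 genes were called, and 7291 with no minimum fold. No member was called between genotypes in any of these. Whether replicate numbers paired the cultures could not be settled with 2 libraries a group. Deviations of same-numbered libraries correlated at -0.27 to 0.46 within a genotype and -0.26 to 0.30 between genotypes. With the replicate block 9297 genes were called after 8 h of LPS, beside 9295 without it, and a crossed pairing, added after seeing the data, called 11 genes between genotypes at M0, beside 12. With 2 libraries a group, intervals of genotype differences reached -0.31 and 0.57, which limits what could be seen.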
